A study of Mus musculus with 3 samples.

Results

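Aminoacyl tRNA synthetases, the enzymes that load each transfer RNA with its amino acid, were described from 35 listed genes: 20 encode cytosolic enzymes and 15 mitochondrial enzymes. They were taken by name from a list, not by their measured values, and all 35 had a row among the 32531 genes counted. The list does not hold every synthetase gene of the mouse. The RNA was taken from adult, untreated mice of the line Penk-EGFP/Rpl10a (NIDA186), strain C57BL/6J, whose dentate gyrus was dissected. In this line regulatory DNA of the proenkephalin gene, Penk, drives a fusion of EGFP, a green fluorescent protein, with the ribosomal protein Rpl10a. Translating ribosome affinity purification (TRAP) recovers RNA on the tagged ribosomes with antibodies against EGFP, and the 3 libraries, replicates 1 to 3 of 1 group, all hold such purified RNA. No unpurified RNA and no mice without the transgene were used here, which leaves only comparisons between genes of one library and no measure of carried-over RNA. The labels do not say whether the replicates are separate animals. No p-value therefore reaches beyond these 3 libraries, whose spread may be technical in part. In such bulk RNA, fewer cells of a type and less RNA per cell cannot be told apart.

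The libraries differed in depth, from 5348761 gene counts in replicate 1 to 19195559 in replicate 2 and 11059982 in replicate 3. A gene at 0 counts may still be present at up to 0.707, 0.131 and 0.257 CPM, a count divided by the scaled size of its library. That limit allows for 3 unseen counts and covers counting error only. Replicate 1 held fewer genes with at least 10 counts than the other libraries, 8795 against 14252 and 12019. The 9 granule cell markers summed to 1760, 1992 and 1032 CPM. Of these, Prox1, a transcription factor that maintains granule cell fate, gave 658, 475 and 261 CPM. Several others were uneven. Calb1 had 2, 1350 and 121 counts and C1ql3 0, 1658 and 453. Tdo2 had 1, 315 and 114 counts and Plk5 46, 119 and 3. The 6 microglial markers summed to 3.30, 6.81 and 20.9 CPM, with 5 of the 6 at 0 counts in replicate 1, and the 6 oligodendrocyte markers to 877, 733 and 1204. The 6 astrocyte markers summed to 3025, 1341 and 3114 CPM, of which Slc1a2 alone gave 2874, 1228 and 2796, with Gja1 at 0, 12.9 and 11 CPM. The 5 endothelial and mural markers summed to 411, 898 and 312 CPM, of which Rgs5 gave 370, 747 and 67.2. The part of these other cells in the synthetase levels was not tested.

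Every tRNA is charged by a synthetase that recognises both the amino acid and the tRNA, and this step feeds the elongating ribosome. The cytosol and the mitochondrion use separate sets of enzymes, both encoded in the nucleus; Gars and Kars are exceptions, since each encodes both the cytosolic and the mitochondrial form of its enzyme. Several cytosolic enzymes sit together in the multisynthetase complex, held by scaffold proteins. Neurons are known for their sensitivity to these genes: inherited variants in Gars, Yars, Aars and Hars are linked to peripheral neuropathy, and variants in several mitochondrial synthetase genes to disease of brain white matter or the cerebellum.

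Mitochondrial synthetase genes as a class lay below the cytosolic ones in the purified RNA. Levels are given as CPM per kb of exon, so that genes of different length can be compared, and the median tested gene stood at 5.51, 6.36 and 6.14 CPM per kb in replicates 1 to 3. Among the 35 genes, 3 exceeded that median gene in every library, namely Nars, Iars and Lars2, and 24 lay below it in every library. Of all tested genes 31% lay above and 29.7% below in every library. The 24 were 10 of the 20 cytosolic genes and 14 of the 15 mitochondrial genes, Lars2 being the exception. These positions depend on the filter on low counts, which sets the median gene and removes 13 of the 35 genes themselves. Against the median of all 15580 genes with a count and a length, 12 of the 35 genes lay above in every library (34.3%, against 33.7% of those genes) and 8 below (22.9%, against 32.6%). By class, 10 of 20 cytosolic genes (50%) lay above in every library and 2 (10%) below. Of the 15 mitochondrial genes 2 (13.3%) lay above and 6 (40%) below. The cytosolic median then lay above the median of all these genes by 1.09, 0.74 and 1.18 log2 units. The median cytosolic gene had 1.80, 3.86 and 4.34 CPM per kb and the median mitochondrial gene 0.0851, 0.909 and 1.87. On the log2 scale the medians of both classes differed by 3.72, 2.06 and 1.18, a mean of 2.32 ± 1.29 (SD, n = 3), or 4.99-fold, with the cytosolic median higher in 3 of 3 libraries. The gap was widest in replicate 1, where 7 mitochondrial genes and 1 cytosolic gene had 0 counts; in replicates 2 and 3 all 35 genes had counts. It is a description of these lists, which were chosen with results of these libraries known.

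**Figure D1:**
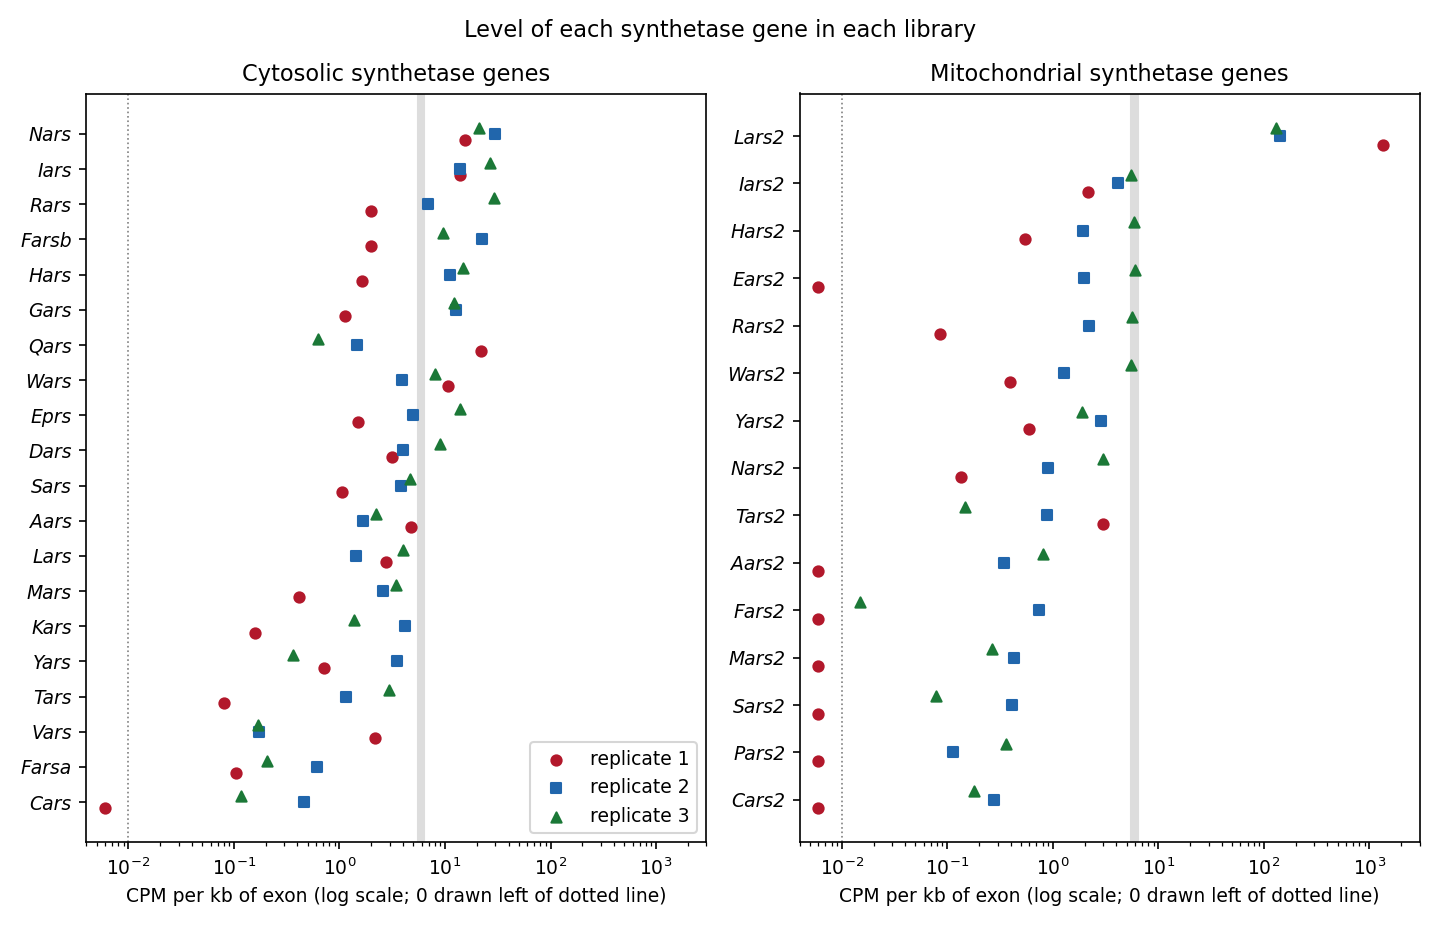
CPM per kb of exon (log axis) for each cytosolic gene (left) and mitochondrial gene (right), ordered by their mean, with 1 point per library; the grey band spans the median tested gene in the 3 libraries, and points left of the dotted line had 0 counts. Lars2, from 131 to 1349, lies beyond every other gene, Nars and Iars lie right of the band in all 3 libraries, and the points of replicate 1 lie left of the others for most mitochondrial genes.

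A gene's level was tested as its log2 CPM per kb minus the median tested gene of the same library, with limma's TREAT, which asks whether a level lies more than 1 log2 unit from that gene. Only 22 of the 35 genes could be tested, 16 cytosolic and 6 mitochondrial, because the filter on low counts in effect asks for expression in all 3 libraries; the 13 genes left out had 4 counts or fewer in replicate 1. Of the 22, 1 lay above the median gene and 1 below, while over all 8157 genes tested 10.6% lay above and 4.19% below, so nothing is read from these counts about the synthetases. Lars2 was the gene above (level 5.61, SE 0.60, adjusted p = 1.22e-06) and Vars, the valyl enzyme, the gene below (level -3.77, SE 0.73, adjusted p = 0.00449). These SEs and p-values are limma's, which draws each gene's variance toward that of tested genes of similar abundance. They are therefore not the gene's own spread alone. In replicates 1 to 3 the levels were 7.92, 4.49 and 4.41 for Lars2 and -1.33, -5.00 and -4.98 for Vars. The call of Vars ended without replicate 3 (-3.04, adjusted p = 0.154), with no filter on low counts (-1.83, adjusted p = 0.504) and with edgeR's quasi-likelihood test (-2.80, adjusted p = 0.18). Without replicate 2 Vars did not pass the filter and was not tested. Among tested genes 50% of synthetases lay below the median gene in every library, against 29.7% of all tested genes, and their median level was -0.915, with 7 positive and 15 negative levels. At an unadjusted p under 0.05, 1 tested synthetase lay above and 3 below. The share of all tested genes at that threshold is not given, so nothing is read from these numbers. The nearest misses were the mitochondrial threonyl gene Tars2 (-2.97, adjusted p = 0.0855), Yars (-2.59, adjusted p = 0.16) and Nars (1.82, adjusted p = 0.221).

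Of the cytosolic enzymes, those for asparagine and isoleucine had the highest mean CPM per kb and the narrowest ranges of log2 CPM between libraries. With lengths from the longest transcript Iars ranked 3, behind Nars and Eprs. In single libraries other genes were higher. Qars at 22.1 in replicate 1 and Rars at 29.0 in replicate 3 exceeded both, and Farsb at 22.4 exceeded Iars in replicate 2. Nars, the asparaginyl enzyme, had 284, 2970 and 1063 counts, which is 15.4, 29.8 and 20.9 CPM per kb (mean 22.0 ± 7.27, SD, n = 3), a level higher than that of 84.8% of tested genes. Iars, the isoleucyl enzyme, had 312, 1675 and 1643 counts, or 14.0, 13.9 and 26.7 CPM per kb (mean 18.2 ± 7.36). The values of both genes overlapped, so their order was not resolved, and their lowest libraries lay above every value of Tars, Vars, Farsa and Cars. Next came Rars, the arginyl enzyme, at 1.97, 6.97 and 29.0 CPM per kb (mean 12.6 ± 14.4) and Farsb, the beta subunit of the phenylalanyl enzyme, at 1.98, 22.4 and 9.5 (mean 11.3 ± 10.3). These differ from Nars and Iars in kind: both were low in replicate 1, at 27 and 22 counts, and each peaked in another library.

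The low end of the cytosolic class held Tars, Vars, Farsa and Cars. Tars, the threonyl enzyme, had 2, 155 and 203 counts, or 0.0799, 1.15 and 2.94 CPM per kb (mean 1.39 ± 1.45). Vars had 52, 22 and 11 counts, or 2.19, 0.171 and 0.168 CPM per kb (mean 0.842 ± 1.16), so it was low in replicates 2 and 3 and close to the cytosolic median in replicate 1. Farsa, the alpha subunit of the phenylalanyl enzyme, had 2, 64 and 11 counts and 0.104, 0.616 and 0.207 CPM per kb (mean 0.309 ± 0.271). Its partner Farsb, with which it forms one enzyme, exceeded it in all 3 libraries. Cars, the cysteinyl enzyme, was lowest, with 0, 70 and 9 counts and 0, 0.464 and 0.117 CPM per kb (mean 0.194 ± 0.241). The other 12 cytosolic genes had means from 1.52 CPM per kb (Yars) to 9.16 (Hars), with Gars at 8.65, Qars at 8.08, Wars at 7.57, Eprs at 6.81, Dars at 5.37, Sars at 3.18, Aars at 2.88, Lars at 2.74, Mars at 2.13 and Kars at 1.89.

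The enzymes of the multisynthetase complex were not evenly represented, although they assemble into one particle. The 8 listed enzymes of the complex (Eprs, Iars, Lars, Mars, Qars, Rars, Kars and Dars) had a median level above that of the 12 free cytosolic enzymes by 0.74, 0.16 and 0.69 log2 units in replicates 1 to 3. That difference is small beside the spread within the complex, whose highest and lowest enzyme differed 140-fold, 9.58-fold and 46.4-fold in CPM per kb. The 140-fold value rests on Kars at 3 counts. Such a spread was not particular to the complex, since the free enzymes were no more even. Among these, Nars stood at 15.4 and Cars at 0 CPM per kb in replicate 1. Nars stood at 29.8 and Vars at 0.171 in replicate 2, and Nars at 20.9 and Cars at 0.117 in replicate 3. Eprs, which joins the glutamyl and the prolyl enzyme in one chain, ranked 9 of 20 at 1.48, 4.99 and 14.0 CPM per kb, and ranked 2 when divided by its longest transcript of 5638 bases instead of its merged exons of 18102 bases. Kars, the lysyl enzyme, ran from 3 counts in replicate 1 to 425 in replicate 2 and 71 in replicate 3. The 3 scaffold genes were near 0 in replicate 1: Aimp1 had 0, 134 and 118 counts, Aimp2 0, 103 and 3, and Eef1e1 5, 154 and 37. Of these scaffold genes 1 could be tested and it was not called in either direction.

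Among mitochondrial enzymes other than Lars2, Iars2 was the one with counts well above 0 in every library. Iars2, the isoleucyl enzyme, had 81, 843 and 572 counts, or 2.15, 4.14 and 5.51 CPM per kb (mean 3.93 ± 1.69, SD, n = 3). Hars2, the histidyl enzyme, had 10, 190 and 295 counts and 0.551, 1.94 and 5.90 CPM per kb (mean 2.80 ± 2.77). Ears2, the glutamyl enzyme, had 0, 235 and 365 counts and 0, 1.99 and 6.06 CPM per kb (mean 2.68 ± 3.09). All 3 were highest in replicate 3 and lowest in replicate 1. In replicate 3 their order was the reverse of that by the mean, with Ears2 highest and Iars2 lowest of the 3.

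The lowest mitochondrial genes were Mars2, Sars2, Pars2 and Cars2, and all 4 had 0 counts in replicate 1. Mars2, the methionyl enzyme, had 0, 112 and 35 counts, or 0, 0.433 and 0.265 CPM per kb. Sars2, the seryl enzyme, had 0, 31 and 3 counts, or 0, 0.409 and 0.0775 CPM per kb. Pars2, the prolyl enzyme, had 0, 8 and 13 counts, or 0, 0.113 and 0.359 CPM per kb, and Cars2, the cysteinyl enzyme, 0, 46 and 15 counts, or 0, 0.277 and 0.177. Their order changed between replicates 2 and 3: Pars2 was the lowest of the 4 in replicate 2 and the highest in replicate 3. Between the ends lay Rars2 at a mean of 2.65 CPM per kb, Wars2 at 2.40, Yars2 at 1.77, Nars2 at 1.35, Tars2 at 1.33, Aars2 at 0.385 and Fars2 at 0.253.

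The cytosolic enzyme was the more abundant one for most amino acids that have a gene in both classes. The 35 genes give 16 pairings, in which Eprs is set against both Ears2 and Pars2, and Fars2 against both Farsa and Farsb, so the pairings are not independent. In 11 of the 16 the cytosolic gene was higher per kb in all 3 libraries, also when exon lengths were taken from the longest transcript or from GENCODE's basic transcripts. Of those 11, the pairings against Aars2, Ears2, Pars2, Fars2, Mars2 and Sars2 had the mitochondrial gene at 0 counts in replicate 1. There any count puts the cytosolic gene higher. Eprs exceeded Pars2 by 4.90, 4.94 and 5.09 on the log2 scale (mean 4.98 ± 0.10, SD, n = 3). Since Pars2 had 0, 8 and 13 counts, nothing is read from the closeness of these 3 values. Iars exceeded Iars2 by 2.69, 1.74 and 2.27 (mean 2.23 ± 0.48) and Hars exceeded Hars2 by 1.53, 2.50 and 1.32 (mean 1.78 ± 0.63). Farsb over Fars2 was the widest gap in favour of a cytosolic gene, at 6.24, 4.86 and 7.84, and Nars over Nars2 was 6.61, 5.0 and 2.79. A difference against a gene at 0 counts, such as Pars2 or Fars2 in replicate 1, depends on the 2 counts added before the logarithm.

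In 4 pairings the order changed between libraries: cysteine (Cars and Cars2), threonine (Tars and Tars2), tyrosine (Yars and Yars2) and the alpha subunit for phenylalanine (Farsa and Fars2). The threonine pair turned over most. Tars2 stood at 2.96, 0.882 and 0.148 CPM per kb, highest in replicate 1, while Tars stood at 0.0799, 1.15 and 2.94, highest in replicate 3. The log2 difference of Tars minus Tars2 was therefore -4.81, 0.38 and 4.12. For tyrosine both genes were alike in replicates 1 and 2, with differences of 0.19 and 0.28, and Yars was the lower gene in replicate 3 (-2.32). Leucine was the 1 pairing with the mitochondrial gene higher in all 3 libraries.

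**Figure D2:**
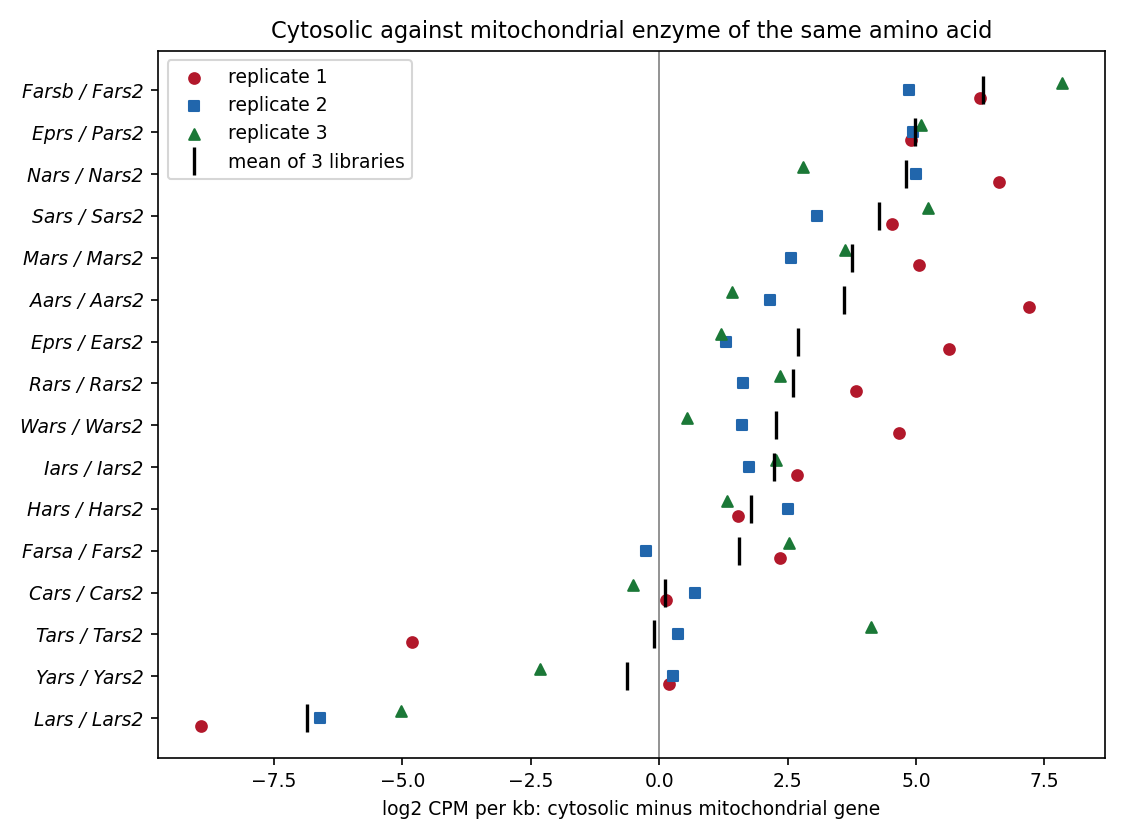
Log2 CPM per kb of the cytosolic gene minus that of the mitochondrial gene for the same amino acid, 1 point per library, with the mean of the 3 libraries as a black bar; right of 0 the cytosolic gene is higher. Of the 16 pairings 11 lie right of 0 in all 3 libraries and the leucine pair alone lies left of it in all 3, with a mean of -6.85.

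Lars2, the mitochondrial leucyl enzyme (chromosome 9, 123366927 to 123462666, plus strand, GRCm38), stood apart from all other synthetase genes. It had 63448, 36440 and 16973 counts in replicates 1 to 3, or 1349, 143 and 131 CPM per kb (mean 541 ± 700, SD, n = 3), a level above that of 99.7% of tested genes. It exceeded the next synthetase gene 60.9-fold in replicate 1 (Qars), 4.82-fold in replicate 2 (Nars) and 4.52-fold in replicate 3 (Rars). Lars2 alone gave 96.68, 69.71 and 58.16% of all counts on the 35 genes. As a share of gene counts it took 1.186% (exact 95% binomial interval 1.177 to 1.195), 0.1898% (0.1879 to 0.1918) and 0.1535% (0.1512 to 0.1558). These intervals cover counting error only, because reads that PCR copied from one molecule are counted singly, and the libraries differed by far more. The cytosolic leucyl gene Lars had 63, 178 and 251 counts, or 2.77, 1.45 and 4.0 CPM per kb, and its log2 difference from Lars2 was -8.91, -6.60 and -5.02.

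The share of counts on Lars2 followed the libraries in the same order as that on Rn45s, the precursor of ribosomal RNA. Rn45s took 5.568% of gene counts in replicate 1, 1.593% in replicate 2 and 1.052% in replicate 3, and Lars2 had 21.3, 11.92 and 14.59 counts for every 100 on Rn45s. The sum of the other 34 synthetase genes went the other way, at 514, 691 and 1045 CPM, but not each gene did. Qars (145, 9.65 and 4.11 CPM), Tars2 (20.5, 6.11 and 1.03) and Vars (12.3, 0.960 and 0.941) were highest in replicate 1. Aars and Wars were also highest there. The last exon of the longest Lars2 transcript, exon 21 of 21, is identical over 52 bases (chr9:123462048-123462099, plus strand, GRCm38, beyond the end of the coding sequence at 123461675) to a GENCODE transcript of Gm15564, and over 41 bases at each of 2 places to one of AA474408. Neither Gm15564 nor AA474408 had a row. The deposited counts carry no position within a gene, so whether the Lars2 counts lie in that exon, and the part of ribosomal RNA in them, was not tested. Of 5 other rows listed as known to gather ribosomal RNA reads (Cdk8, Cmss1, Camk1d, Jarid2 and Zc3h7a), 0 were highest in replicate 1 and 4 were lowest there. Among all tested genes 36.9% were highest and 42.8% lowest in replicate 1. Cmss1 and Cdk8 had only 0 and 19 counts in that library, and nothing is read from so few rows. Camk1d, a kinase gene, was the 1 of these 5 rows above the median gene (level 3.17, adjusted p = 2.75e-04), at 39.7, 46.3 and 86.8 CPM per kb. Leaving Lars2 and Rn45s out of the library size changed neither the call of Lars2 nor that of Vars.

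**Figure D3:**
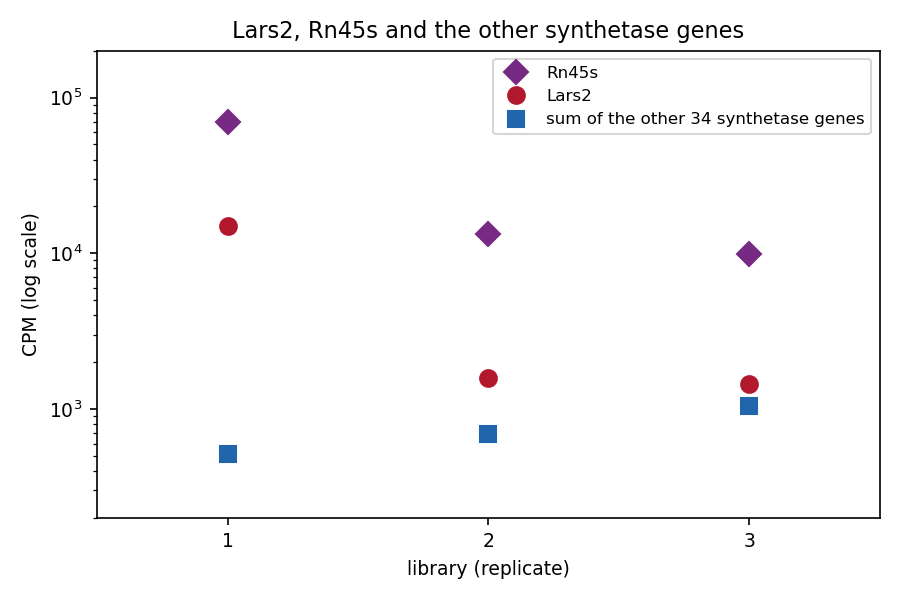
CPM (log axis) of Rn45s, of Lars2 and of the other 34 synthetase genes summed, in each of the 3 libraries. Rn45s and Lars2 are both highest in replicate 1 (70214 and 14958 CPM), where the sum of the other synthetase genes is lowest (514 CPM).

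The synthetase genes varied between libraries by more than counting error, as nearly all genes did. A Poisson chi-square test of the counts against library size called 22 of 22 tested synthetase genes and 97.5% of all tested genes, so the count says nothing particular about the synthetases. The median range of log2 CPM over the 3 libraries was 3.15 for the tested synthetases and 1.82 for all tested genes. Ears2 had the widest range at 7.67, followed by Rars2 at 5.34 (1, 140 and 183 counts) and Qars at 5.09. The steadiest were Iars at 0.94, Nars at 0.95 and Iars2 at 1.35. Since a range widens where a count is near 0, the wide ranges of Ears2 and Rars2 rest on replicate 1.

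Replicate 1 held the lowest CPM for most synthetase genes and the highest for a few. It was the lowest library for 26 of the 35 genes (74.3%), that is 13 of 20 cytosolic and 13 of 15 mitochondrial genes. Among tested genes it was lowest for 59.1% of synthetases and for 42.8% of all genes. Of genes with at least 10 counts in both other libraries, 0 counts in replicate 1 were found for 4 of 31 synthetase genes (12.9%) and 14% of all genes, shares that lie close together. The 4 were Aars2, Cars2, Ears2 and Mars2, all mitochondrial, out of 12 mitochondrial genes so counted (33.3%), against 0 of 19 cytosolic genes. Counts of replicates 2 and 3 were also scaled to the gene total of replicate 1, for the 8 members at 0 there. They came to 65.5 and 176.5 for Ears2, 10.6 and 21.8 for Aars2, and 31.2 and 16.9 for Mars2. For Cars2 they were 12.8 and 7.25, for Cars 19.5 and 4.35, and for Fars2 27.3 and 0.484. Pars2 came to 2.23 and 6.29, and Sars2 to 8.64 and 1.45. The part of depth in the zeros was not tested.

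Qars went against most other synthetase genes. This glutaminyl enzyme had 617, 221 and 48 counts, or 22.1, 1.47 and 0.625 CPM per kb (mean 8.08 ± 12.2, SD, n = 3). It was the highest synthetase after Lars2 in replicate 1 and among the low cytosolic genes in replicate 3. Besides Qars and Lars2, the genes highest in replicate 1 were Aars at 4.72, 1.69 and 2.24 CPM per kb, Wars at 10.7, 3.90 and 8.07, Vars and Tars2. Replicate 3 was the highest library for 17 genes, among them Rars, Eprs, Hars, Ears2 and Wars2, and replicate 2 for 12, among them Nars, Farsb, Kars and Yars. Among tested genes, replicates 1, 2 and 3 were highest for 27.3, 22.7 and 50% of synthetases and for 36.9, 31.2 and 31.9% of all genes.

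**Figure D4:**
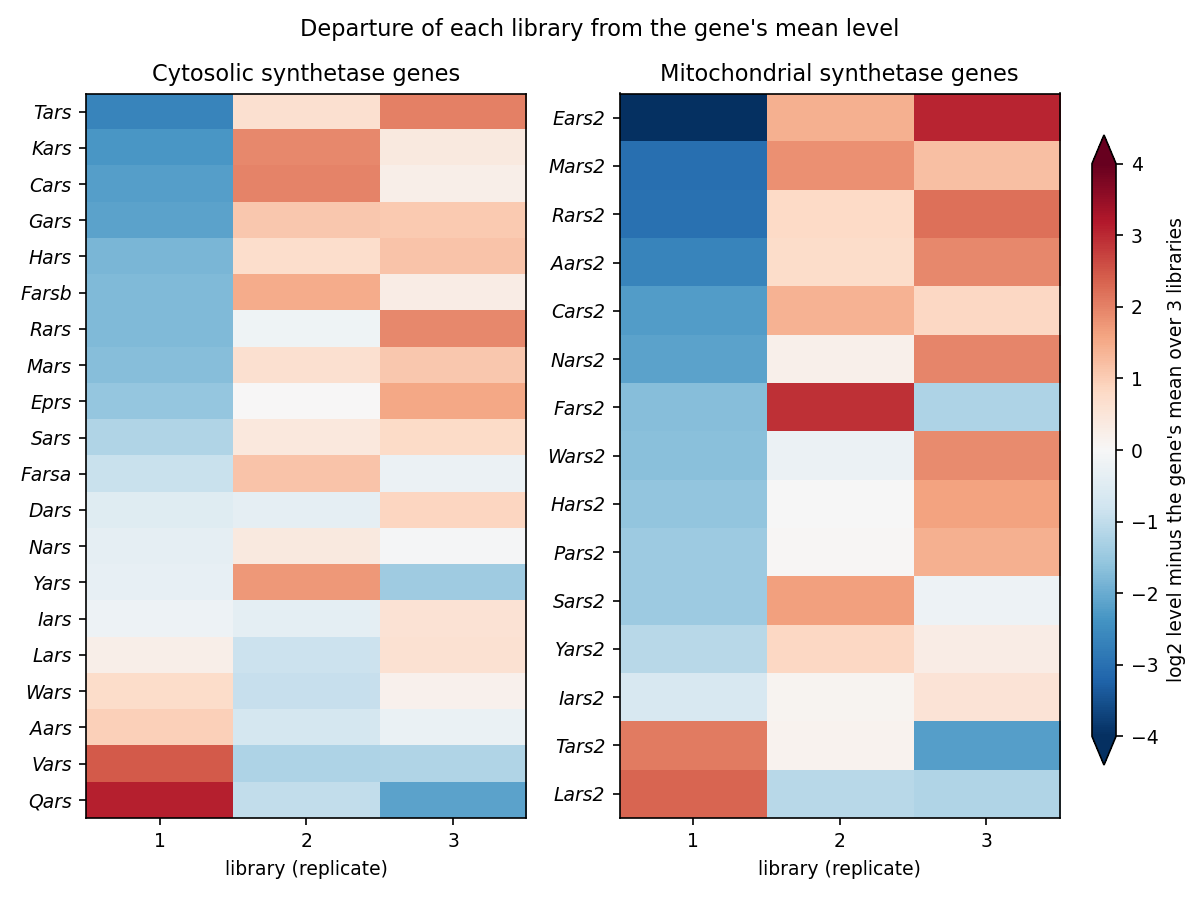
Colour gives each library's log2 level minus the gene's mean over the 3 libraries, for cytosolic (left) and mitochondrial (right) genes ordered by their departure in replicate 1; the scale ends at 4 units on either side, which only Ears2 in replicate 1 passes. Blue fills the replicate 1 column for most genes, while Qars, Vars, Lars2 and Tars2 are red there.

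Charging enzymes are among the known targets of ATF4, the transcription factor that is made when amino acids run short, and ATF4 pairs with C/EBP proteins on a composite site. RefSeq promoter sequences on GRCm38.p6, from 250 bases before to 50 after the start site, were found for 27 of the 35 genes. The letters TGATGNAA of that composite site, searched on both strands, occurred in 5 of 13 cytosolic genes (38.5%), in 0 of 14 mitochondrial genes and in 4.51% of all 27025 genes in the table. The stretches, 1 for each gene at the match nearest its start site, are shown because they are what the 5 cytosolic genes share; capitals mark the match, which reads as its reverse complement in all but Yars. Positions in brackets count from the start site to the first base of the match.
Aars, chr8:111033840-111033869, plus strand (9): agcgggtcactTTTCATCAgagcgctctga
Gars, chr6:55037960-55037989, plus strand (-30): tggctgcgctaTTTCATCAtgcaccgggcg
Iars, chr13:49682126-49682155, plus strand (7): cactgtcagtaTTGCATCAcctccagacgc
Tars, chr15:11399655-11399684, minus strand (-15): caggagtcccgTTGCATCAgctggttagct
Yars, chr4:129189895-129189924, plus strand (3): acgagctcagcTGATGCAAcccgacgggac
A match is a run of letters, not a shown binding site. The 5 genes did not move together over the libraries: Aars was highest in replicate 1, Gars and Yars in replicate 2, and Iars and Tars in replicate 3. Gars had 1.13, 12.7 and 12.1 CPM per kb and Yars 0.714, 3.47 and 0.36. The cAMP response element TGACGTCA occurred in 0 of 13 cytosolic and 0 of 14 mitochondrial genes and in 2.03% of all genes. GCGCATGC, the core of the site for the respiratory gene regulator NRF1, occurred in 0 of 13 cytosolic genes, in 2 of 14 mitochondrial genes (Rars2 and Wars2) and in 3.05% of all genes.

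Of 21 listed genes of the ATF4 pathway 9 could be tested, and 0 lay above the median gene and 1 below, beside 10.6% and 4.19% of all tested genes. The 1 below was Gcn1l1, the activator of the amino acid sensor kinase, at 0.384, 0.309 and 0.231 CPM per kb (level -4.28, adjusted p = 0.0023). Its call ended with no filter on low counts, without replicate 3 and without the length correction. The highest member was Cebpg, a C/EBP partner, at 61.2, 14.5 and 25.8 CPM per kb (level 2.24, adjusted p = 0.0531), and Trib3, a feedback inhibitor, had 0 counts in all 3 libraries. Atf4 itself stood at 13.5, 27.1 and 16.5 CPM per kb (level 1.6, adjusted p = 0.46). Asns, which makes asparagine and is a classic target, had 9, 651 and 538 counts, low in replicate 1 as were most synthetases; Asns was chosen after its values were seen.

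Of the factors that bring charged tRNAs to the cytosolic ribosome or move it, Eef1a1 and Eef2 exceeded every synthetase gene other than Lars2 in all 3 libraries. All 6 listed cytosolic elongation factors were tested, with 2 above the median gene and 0 below, beside 10.6% and 4.19% of all tested genes. Eef1a1, which carries charged tRNA to the ribosome, had 297, 244 and 311 CPM per kb (level 5.55, adjusted p = 8.21e-09), and Eef2, which moves the ribosome along, had 108, 55.1 and 165 (level 4.04, adjusted p = 5.45e-06). The lowest member, Eef1d, had 3.38, 3.70 and 0.976 CPM per kb. Of 4 mitochondrial elongation factors 2 were tested and 0 called in either direction; Gfm1 led at 19.6, 2.07 and 4.78 CPM per kb, and Tufm, the counterpart of Eef1a1, was lowest with 0, 36 and 5 counts.

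Mitochondria lack a glutaminyl synthetase and make their charged glutaminyl tRNA through an amidotransferase of subunits Gatb, Gatc and Qrsl1. The subunit genes were uneven. Gatc had 514, 7874 and 1509 counts, or 67.4, 191 and 71.8 CPM per kb, above the median gene (level 4.02, adjusted p = 1.1e-05), while Gatb had 1, 175 and 50 counts and Qrsl1, the lowest, 0, 14 and 0. With Mtfmt, the formyltransferase of the initiator tRNA, this list had 4 genes, of which Gatc was the only one tested. Of 6 editing and accessory factors 3 were tested and 0 called in either direction; Dtd1, which removes wrongly attached D-amino acids, led at 25.7, 35 and 2.22 CPM per kb, and Sepsecs, of selenocysteine synthesis, was lowest with 0, 51 and 13 counts.

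Some counts are uncertain because exons overlap other genes. The strand setting of the counting is not given in the sources used here, so reads from overlapping genes on opposite strands may not be separable: Hars and Hars2 share 195 bases with each other, Iars2 shares 2034 bases with Rab3gap2, Fars2 shares 501 with Nrn1, Cars2 shares 422 with Carkd and Farsb shares 248 with Sgpp2. Shorter overlaps lie in Fars2 with Lyrm4, Ears2 with Ubfd1, Mars with Ddit3 and Yars with C77080. Aars shares 1326 bases with Exosc6 on the same strand. Iars has a processed pseudogene, Gm4849, that is 96.0% identical over 1656 bases and had no row, so some Iars reads may have been counted as aligning to several places.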

How the data were processed

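RNA purified from tagged ribosomes was measured in 3 libraries of 1 group. The authors deposited raw read counts per gene symbol, 1 table for each library, with no normalisation visible in the values. Per the submitters' processing notes the tools were STAR 2.0.0e and HTSeq and the genome was mm10; annotation and strand setting are not given in the sources used here. Left out were the counter's summary entries (no gene feature, 50.7, 35.4 and 40.5% of reads; several places, 32.2, 24.8 and 37.5%; ambiguous, 0.763, 1.6 and 0.873%) and an entry named unknown, with 0 counts.

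Counts were scaled by TMM (factors 0.793, 1.19 and 1.06) and turned into log2 CPM in edgeR 4.0.16 under R 4.3.3, adding a prior count of 2, then divided by merged exon length. Lengths come from GENCODE vM21 (GRCm38), possibly not the annotation used for counting; 23155 symbols of 32531 matched directly and 737 by RefSeq synonym. Of 8510 genes that filterByExpr kept, 353 had no length. Levels were tested with limma 3.58.1 (trend, TREAT, log2 threshold 1, intercept only, 2-sided) with Benjamini-Hochberg adjustment over all tested genes at 0.05, as was the Poisson test. Both were checked on simulated data.

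Members and lists were chosen with earlier results of these data known. Named were the genes called, the 4 highest and 4 lowest of each class by mean CPM per kb, the 3 widest and 3 narrowest ranges, Lars2, and of other lists every called gene and the highest and lowest member; values of the other members account for the rest. Alternatives covered size factors from DESeq2 1.42.0, no filter, another prior count, other lengths, other tests, Lars2 left out, thinned libraries, at least 50 counts in total, means for medians and each replicate left out. Basic-transcript lengths, Lars2 and Rn45s left out together, and counts below 3 set to 3 were added after seeing the data. edgeR's quasi-likelihood F was computed by hand against the nearer threshold, since its tests need a second design column. Figures used matplotlib 3.10.9.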

Additional observations from a re-analysis of the deposited data

How the results depend on the processing

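The number of synthetase genes above the median gene, 1, was 3 with no filter on low counts (Iars, Lars2 and Nars, where 19.5% of all genes were above), 3 with limma's eBayes test against 0 (21.8% of all genes) and between 1 and 3 when 1 replicate was left out. The number below, also 1, was 5 with no filter (18.3% of all genes), 3 with eBayes (12.9%), 0 with edgeR's quasi-likelihood test and between 0 and 6 with 1 replicate left out. Without replicate 1, which lets 32 members be tested, the 6 were Cars, Cars2, Farsa, Mars2, Tars2 and Vars, where 5.84% of all genes were below. Without replicate 2, the 1 gene was Yars. Without replicate 3, 0 genes were below. Lars2 was above under all 13 alternatives run. The levels of the 7 called genes (Lars2, Vars, Eef1a1, Eef2, Gatc, Camk1d and Gcn1l1) kept their direction wherever they were tested. Vars was not tested without replicate 2. Levels of other named genes were not recomputed one by one. With no filter 35 genes were tested for variation and all 35 were called (88.6% of all genes). Without replicate 1, 29 of 32 tested members were called, without replicate 2 19 of 19 and without replicate 3 20 of 22. The shares of all genes were then 85.3, 86.3 and 86.2%. The log2 gap between the class medians, 2.32, ran from 1.63 to 2.90 with 1 replicate left out, was 1.75 with means over members and 2.78 without Lars2, and with all 14 alternatives moved by less than its SD between libraries. The low genes are the least certain: 8 members had 0 counts in replicate 1, whose library holds the fewest gene counts. The part of depth in these zeros was not tested. No paired analysis was possible because all 3 libraries belong to 1 group.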
